A study of Mus musculus with 6 samples.

Results

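The genes described here encode the complement cascade and the clotting cascade, together with the proteins that restrain them, leaving out the serpin inhibitors. The set of 44 genes was chosen by name: 25 complement genes and 19 genes of clotting and fibrinolysis. Each was read from the array probe whose RefSeq accession belonged to it, and where a gene had several probes the brightest was used. All 44 were among the 22845 genes tested, and 42 were well above background in both dyes on all 6 arrays. The livers came from Fra-1hep mice on the C57BL/6J strain, in which hepatocytes alone overexpress Fra-1, and from C57BL/6J wild-type mice, all of them 26 to 28 weeks old and untreated. On 5 Agilent arrays, each read in 2 colours, RNA of a single Fra-1hep mouse in the red dye (Cy5) was set against a pool of 5 wild-type livers in the green dye (Cy3). The last array had the dyes exchanged, with pooled Fra-1hep liver in green against the wild-type pool in red. The control mice were chow-fed per the series design text. The promoter that drives the transgene was not given in the sources used here.

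Complement is a set of plasma proteases and binding proteins that mark microbes and debris. It is started by antibody through C1 (the classical pathway), by sugars through mannose-binding lectins and ficolins (the lectin pathway), or by slow spontaneous activation of C3 (the alternative pathway), and it ends in the membrane attack complex. Clotting is a chain of protease zymogens that ends with thrombin cutting fibrinogen to fibrin, and plasmin later dissolves the clot. Hepatocytes make most of these proteins, while properdin, ficolin A and the receptors come largely from blood and sinusoidal cells, and factor D is best known as adipsin, a product of fat cells. In whole liver, fewer cells of a type and less RNA per cell cannot be told apart.

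Each value is a log2 ratio of Fra-1hep over wild type, with the ratio of the dye-swapped array turned the same way. A gene was called changed at an adjusted p under 0.05 in limma (Benjamini-Hochberg over all genes tested). The estimate gives the dye-swapped array as much weight as all mouse arrays together, which removes a constant dye effect. Its standard error (SE) combines the gene's spread over the mice (3 degrees of freedom) with a variance drawn from all genes tested (4.67 degrees). It can thus be narrower or wider than the gene's own spread would give. The mice were counted as 4 samples. The arrays of mice 2 and 3 differed from each other 1.12 times as much as spots of the same probe did within an array. Other pairs of mice differed 1.9 to 2.45 times as much. The labels number mice 2 and 3 as separate mutants. The wild-type pool was 1 sample, so the spread between wild-type mice is in no SE given here. The probe for Fosl1, the gene of Fra-1, was above background on 0 of 6 arrays in both dyes, with ratios from -0.18 to 0.07, and so does not check the labels. Per array, 48.5 to 58.9% of the probes were above background in the Fra-1hep dye and 45.0 to 50.7% in the wild-type dye, and 0 spots were saturated.

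Complement transcripts fell more often than they rose in Fra-1hep liver, and clotting transcripts were split. Of the 25 complement genes, 9 fell and 1 rose, while 15 were not called. Of the 19 clotting genes, 2 fell and 2 rose, while 15 were not called. Together 11 of 44 fell (25.0%), where 6.51% of all genes tested fell, and 3 of 44 rose (6.82%), where 5.97% of all genes rose. In both directions 14 of 44 were called (31.8%). That share was 12.5% over all genes, 15.9% over the 13953 genes with a symbol and 13.8% over the 2805 genes with a mean log2 signal of at least 12, a level reached by 33 of the 44. Of the 14 called genes, 7 changed by less than 1.5-fold. With arrays centred on their median in place of loess, the split of the 44 was 7 higher and 6 lower, and that of all genes moved from 1364 higher and 1487 lower to 2465 and 833. The median log2 ratio was -0.19 over the complement genes and -0.01 over the clotting genes, beside 0.01 over all genes. All 14 called genes moved in 1 direction on all 6 arrays, as did 4 that were not called (Masp1, C8b, Cfi and Fgg). The calls were made from these same arrays, so this evenness is no separate support for them. The share over all genes is not given here. The median SD over the 4 mouse samples was 0.18 for the set and 0.12 for all genes.

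**Figure D1:**
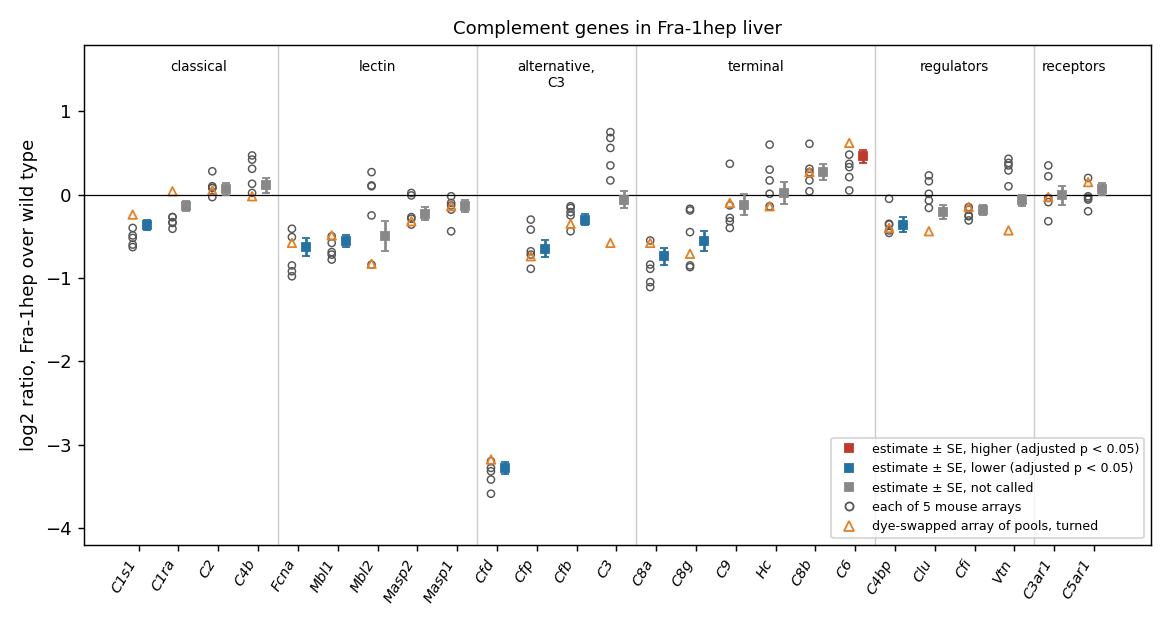
Log2 ratio of Fra-1hep over wild type (vertical axis) for the 25 complement genes, grouped by pathway along the horizontal axis. Circles are the 5 mouse arrays, triangles the dye-swapped array of pools, and squares the estimates with their SE, coloured by call. Cfd lies near -3.28 on all 6 arrays, while the mouse arrays and the dye-swapped array of C3 and of Vtn lie on opposite sides of 0.

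In the alternative pathway 3 of 4 genes fell, where 6.51% of all genes tested fell. This was the highest share among the 10 branches into which the genes were sorted. The branches held only 2 to 6 genes each, and differences between them were not tested. Cfd, which encodes factor D, the serine protease that cuts factor B, had the lowest ratio of the set. Its ratios were -3.28, -3.20, -3.42, -3.59 and -3.32 in mice 1 to 5 and -3.18 on the dye-swapped array. The estimate was -3.28 (SE 0.07, adjusted p = 1.29e-06). The probe was above background on 6 of 6 arrays for wild type and on 0 of 6 for Fra-1hep, with mean log2 signals of 9.36 and 6.03. Each ratio thus sets the same wild-type pool against a Fra-1hep signal at background, so the closeness of the arrays and the SE do not show how even the change was among mice. Only a bound therefore holds, and only under the processing used here: Cfd was at least 8.89-fold lower. This bound sets the wild-type mean against the higher, per array, of the Fra-1hep signal and the dimmest signal above background. With Agilent's own processed signals the estimate was -5.88, and with no background subtraction it was -2.76, a smaller fall than the bound. Cfd passed the filter on dim probes through the wild-type dye alone, so its presence in the tested set already required a signal there. Of 10 fat cell markers, 4 passed the filter: 2 were called lower and 0 higher, and 1 estimate was above 0. Their median was -0.53, with sample medians from -0.62 to -0.46 and -0.49 on the dye-swapped array. Car3 (carbonic anhydrase 3) fell by 1.39, and Cidea, a lipid droplet protein, was called lower at -0.94 but was above background on only 1 of 6 arrays for Fra-1hep against 6 of 6 for wild type. Fabp4, a fatty acid carrier, was at 0.49 and Lipe, a lipase, at -0.11, neither of them called (adjusted p = 0.143 and 0.272). The summed log2 signal of the list, 14.48 to 15.36 in Fra-1hep and 15.92 to 16.24 in wild type, was carried by Car3, whose own mean log2 signals were 14.68 and 15.97. The defining fat cell genes Adipoq, Plin1, Lep and Retn were above background on at most 1 of 6 arrays in either dye. The 4 markers that passed, and their median, therefore cannot be read as a measure of fat cells. The part of fat cells in the Cfd result was not tested.

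Cfp encodes properdin, which stabilises the alternative pathway convertase. It had ratios of -0.72, -0.68, -0.89, -0.30 and -0.42 in the mice and -0.74 on the dye-swapped array. The lowest were in mice 1 to 3 and the pool, and no array was above 0. The estimate was -0.65 (SE 0.10, adjusted p = 0.00588), a 1.57-fold fall. Cfb, the catalytic subunit of that convertase, had ratios of -0.16, -0.14, -0.21, -0.25 and -0.44, with -0.35 for the pool. It fell by 0.30 (SE 0.07, adjusted p = 0.0319), and the call was lost with median centring (-0.13, adjusted p = 0.334), with Agilent's processed signals (adjusted p = 0.096) and without mouse 4 (adjusted p = 0.0603). C3, the protein on which all pathways meet, gave no single direction: 0.17, 0.68, 0.75, 0.56 and 0.35 in the mice against -0.58 on the dye-swapped array. Its estimate was -0.06 (adjusted p = 0.738).

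The Cfd promoter is shown because its gene changed most. It comes from the RefSeq table of build GRCm38.p6 and covers 250 bases before and 50 after the annotated start, at chr10:79890603-79890902 on the plus strand. It was searched on both strands for TGANTCA, the site of AP-1 (the factor family to which Fra-1 belongs), for TTGCNNAA (C/EBP), for GTTAAT (HNF1) and for TTCNNNGAA (STAT3), and held 0 matches of all 4. Matches of the first 3 are set in capitals in every promoter printed here.
Cfd: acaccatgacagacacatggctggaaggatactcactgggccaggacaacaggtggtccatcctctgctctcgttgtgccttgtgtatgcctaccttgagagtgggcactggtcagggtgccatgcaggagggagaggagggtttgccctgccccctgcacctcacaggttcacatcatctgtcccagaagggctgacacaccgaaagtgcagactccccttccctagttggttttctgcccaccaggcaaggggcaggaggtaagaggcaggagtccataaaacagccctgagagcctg

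In the lectin pathway all 5 estimates were below 0, and 2 were called. Mbl1 (mannose-binding lectin A), a sugar-binding starter of the pathway, had ratios of -0.50, -0.72, -0.78, -0.58 and -0.69 in the mice and -0.49 on the dye-swapped array. All 6 arrays lay within a narrow band below 0. It fell by 0.56 (SE 0.07, adjusted p = 0.00228), or 1.47-fold. Fcna (ficolin A), a starter of the same pathway, had ratios of -0.85, -0.92, -0.98, -0.51 and -0.41, and -0.58 for the pool. Mice 4 and 5 were nearer to 0 than mice 1 to 3. It fell by 0.63 (SE 0.11, adjusted p = 0.00912), or 1.55-fold, and with Agilent's processed signals the adjusted p was 0.0555. Mbl2 (mannose-binding lectin C) had a similar estimate, -0.50, on far less even arrays: -0.84 in mouse 1, 0.10, 0.11 and 0.27 in mice 2 to 4, -0.25 in mouse 5 and -0.83 for the pool (adjusted p = 0.119). The proteases that these lectins carry, Masp1 and Masp2, were not called, at -0.14 and -0.23 (adjusted p = 0.257 and 0.116). Over the 5 genes the median was -0.50, with sample medians from -0.50 to -0.25 and -0.49 on the dye-swapped array.

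Cfp and Fcna, which in liver are known as products of macrophages and other blood-derived cells, were lower beside lower macrophage markers. The receptor genes C3ar1 and C5ar1, grouped with them above, were not called, at -0.01 and 0.07. Of 11 Kupffer cell and macrophage markers tested, 10 fell and 1 was not called, with a median of -0.58. The summed log2 signal of that list ranged from 15.41 to 16.13 in Fra-1hep and from 16.39 to 16.58 in wild type. Within that list, C1qa, C1qb and C1qc, the chains of C1q and products of macrophages, fell by 0.59, 0.56 and 0.47. Endothelial markers were lower as well, with 8 of 10 called, a median of -0.44 and summed signals of 13.47 to 14.10 against 14.42 to 14.50. Neutrophil markers were higher, with 9 of 10 called, a median of 2.29 and sample medians from 1.02 to 3.06 (summed signal 15.20 to 16.44 against 14.58 to 14.88). Of these 9, Mmp8 was above background on 5 of 6 arrays for Fra-1hep but 1 of 6 for wild type. It passed the filter through the Fra-1hep dye. Of 11 hepatocyte markers, 2 rose and 2 fell, with a median of 0.25. Their sample medians ran from 0.29 to 0.57 in the mice, but the dye-swapped array gave -0.11. The part of these cells in the complement results was not tested.

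In the classical pathway 1 of 4 genes was called. C1s1, the C1s protease that cuts C4 and C2, had ratios of -0.40, -0.63, -0.60, -0.49 and -0.52 in the mice and -0.24 for the pool, all below 0. It fell by 0.37 (SE 0.06, adjusted p = 0.00904), or 1.30-fold. With median centring it was -0.21 and not called (adjusted p = 0.0729). C1ra, the C1r protease that activates it, lay between -0.41 and -0.27 in all 5 mice, but at 0.04 on the dye-swapped array. Its estimate was therefore -0.14 (adjusted p = 0.17). The substrates C2 and C4b were not called, at 0.07 and 0.11 (adjusted p = 0.556 and 0.477). C4b ranged from 0.02 to 0.47 in the mice and was -0.02 for the pool.

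The terminal genes did not move as 1 block. The membrane attack complex is built from C5 (gene Hc), C6, C7, C8 and C9, and C8 itself has 3 chains from 3 genes. C8a, the alpha chain, had ratios of -0.55, -0.84, -0.89, -1.11 and -1.05 in the mice and -0.58 for the pool, clear of 0 on every array. It fell by 0.74 (SE 0.10, adjusted p = 0.0043), or 1.67-fold, and its other probe gave -0.68. C8g, the gamma chain, had ratios of -0.17, -0.87, -0.85, -0.45 and -0.19, and -0.71 for the pool. Mice 1 and 5 were nearest to 0. It fell by 0.56 (SE 0.12, adjusted p = 0.0261), and its other probe gave -0.59. The adjusted p was 0.0934 with Agilent's processed signals and 0.0561 with median centring. C8b, the beta chain, was above 0 on all 6 arrays, from 0.04 to 0.61, with an estimate of 0.27 that was not called (adjusted p = 0.131). C6, the scaffold onto which C7 and C8 assemble, was the only gene that rose among the 25 complement genes of the set: 0.48, 0.33, 0.21, 0.37 and 0.05 in the mice and 0.62 for the pool. It rose by 0.46 (SE 0.08, adjusted p = 0.0125), or 1.37-fold, with mouse 5 close to 0. C9, which forms the pore, ranged from -0.40 to 0.37 (estimate -0.12, adjusted p = 0.635), and Hc from -0.14 to 0.60 (estimate 0.02, adjusted p = 0.945). C8b and C8a are next to each other on chromosome 4 with 0 genes between them, yet their estimates had opposite signs. The difference between them was not tested.

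C8g is shown because it is 1 of 3 called genes with a match to the AP-1 letters. The table holds 2 promoters of C8g. The stretch printed is the RefSeq promoter at chr2:25500457-25500756 on the minus strand (GRCm38.p6), and its match begins at -159 relative to the start. The other C8g promoter, which is not printed, held 0 matches to the AP-1 letters or to the other motifs searched.
C8g: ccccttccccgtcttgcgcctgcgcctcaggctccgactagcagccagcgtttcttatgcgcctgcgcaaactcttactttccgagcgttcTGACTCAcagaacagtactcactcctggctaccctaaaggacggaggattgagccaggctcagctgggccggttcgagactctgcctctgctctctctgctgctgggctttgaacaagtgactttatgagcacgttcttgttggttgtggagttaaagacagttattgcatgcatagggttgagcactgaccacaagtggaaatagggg

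Of 4 regulators, only C4bp was called. It encodes the C4b-binding protein, a cofactor for the breakdown of C4b. Its ratios were -0.05, -0.36, -0.35, -0.46 and -0.43 in the mice and -0.40 for the pool, with mouse 1 near 0. It fell by 0.36 (SE 0.09, adjusted p = 0.0331). Without mouse 4 or without mouse 5 the adjusted p was 0.0594 and 0.0585, with Agilent's processed signals 0.104, and with median centring 0.194 at an estimate of -0.19. Cfi, the protease that cuts C3b and C4b, was below 0 on all 6 arrays, but its estimate of -0.19 was not called (adjusted p = 0.0825). Clu (clusterin) and Vtn (vitronectin), which hold back the terminal complex, had estimates of -0.21 and -0.07 (adjusted p = 0.15 and 0.61). The receptors for the fragments C3a and C5a, C3ar1 and C5ar1, had estimates of -0.01 and 0.07 (adjusted p = 0.976 and 0.582). C5ar1 was above background on 5 of 6 arrays for Fra-1hep and 1 of 6 for wild type.

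**Figure D2:**
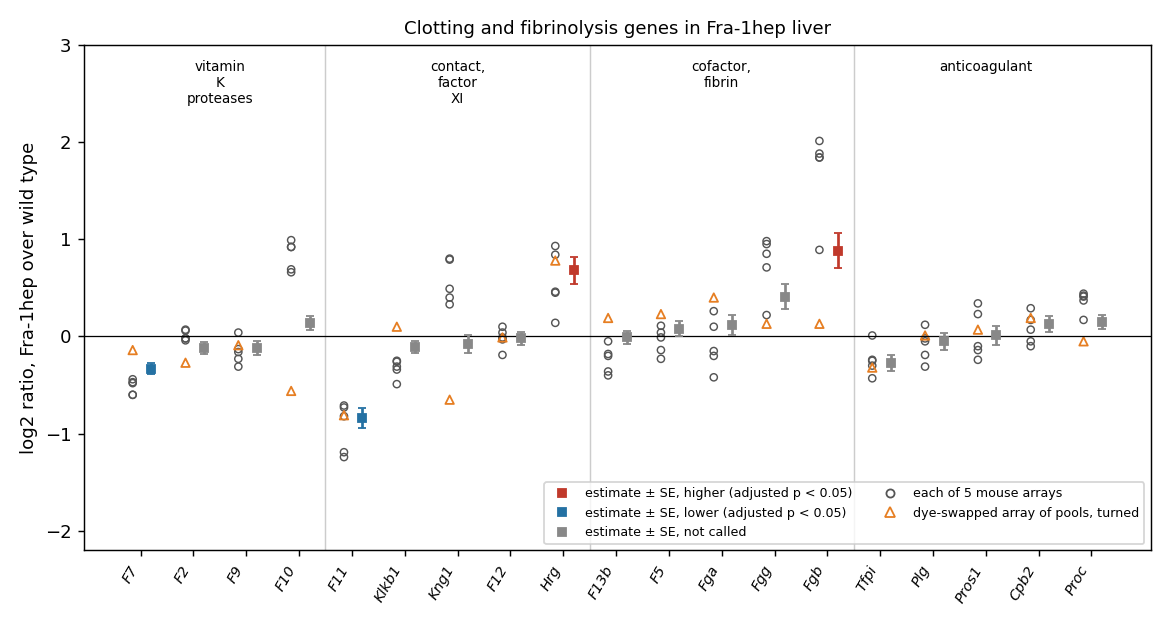
Log2 ratio of Fra-1hep over wild type (vertical axis) for the 19 clotting and fibrinolysis genes, grouped by role along the horizontal axis, with circles for the 5 mouse arrays, triangles for the dye-swapped array and squares for the estimates with their SE. F11 lies between -1.24 and -0.71 on all 6 arrays, and Fgb and Hrg are the genes called higher.

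Among the clotting genes, the fibrinogen chain gene Fgb had the highest ratio. Fibrinogen is made of alpha, beta and gamma chains, encoded by Fga, Fgb and Fgg, which lie side by side on chromosome 3. Fgb had ratios of 0.89, 1.84, 2.01, 1.84 and 1.88 in mice 1 to 5 but only 0.13 on the dye-swapped array. Mouse 1 was below the other mice, and the pool was far below all of them. The estimate was 0.88 (SE 0.18, adjusted p = 0.0198), a 1.84-fold rise. From the mouse arrays alone it would be 1.63, with a signal-dependent and outlier-robust variance together the adjusted p was 0.0806, and with Agilent's processed signals 0.0632. Fgg had ratios of 0.22, 0.98, 0.95, 0.85 and 0.71, and 0.13 for the pool, the same order of mouse 1 and pool below the rest. Its estimate of 0.41 was not called (adjusted p = 0.0796). Fga had ratios of -0.42, 0.26, 0.10, -0.15 and -0.20, and 0.40 for the pool (estimate 0.12, adjusted p = 0.496). A dimmer Fga probe was at or above 0 on all 6 arrays, at 0.46, 0.00, 0.20, 0.57 and 0.34 in the mice and 0.45 for the pool, with an estimate of 0.41 and an adjusted p of 0.0215 over all probes. The mean of both Fga probes was 0.27 (adjusted p = 0.0266). F13b, the carrier subunit of the factor that crosslinks fibrin, and F5, the cofactor of factor X, were not called, at -0.01 and 0.08 (adjusted p = 0.972 and 0.541).

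The promoters of the 3 fibrinogen genes and of Hrg are shown because 2 of these 4 genes rose and the fibrinogen genes are neighbours. Their positions in GRCm38.p6 are chr3:83025903-83026202 (plus strand) for Fga, chr3:83049814-83050113 (minus strand) for Fgb, chr3:83007474-83007773 (plus strand) for Fgg and chr16:22950822-22951121 (plus strand) for Hrg. Capitals mark AP-1, C/EBP and HNF1 letters. In Fgb these begin at -173 (AP-1), -80 (C/EBP) and -29 (HNF1) relative to the start, in Fga at -135 (C/EBP) and -43 (HNF1), and in Hrg at -162 (AP-1) and -133 (C/EBP). Fgg held 0 matches of these 3 motifs. The promoter of C6, the other gene of the set called higher, is not printed and held 0 matches of all 4 motifs searched.
Fga: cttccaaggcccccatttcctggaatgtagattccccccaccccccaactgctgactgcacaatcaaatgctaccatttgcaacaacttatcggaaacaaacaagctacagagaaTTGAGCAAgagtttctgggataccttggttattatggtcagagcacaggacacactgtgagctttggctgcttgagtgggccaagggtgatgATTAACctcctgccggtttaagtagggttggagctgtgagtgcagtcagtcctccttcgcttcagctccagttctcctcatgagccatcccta
Fgb: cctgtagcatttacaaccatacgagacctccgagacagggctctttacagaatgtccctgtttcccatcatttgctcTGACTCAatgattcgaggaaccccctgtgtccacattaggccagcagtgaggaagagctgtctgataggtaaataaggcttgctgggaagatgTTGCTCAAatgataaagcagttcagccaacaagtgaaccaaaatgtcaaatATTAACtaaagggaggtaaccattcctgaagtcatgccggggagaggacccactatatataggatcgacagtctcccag
Fgg: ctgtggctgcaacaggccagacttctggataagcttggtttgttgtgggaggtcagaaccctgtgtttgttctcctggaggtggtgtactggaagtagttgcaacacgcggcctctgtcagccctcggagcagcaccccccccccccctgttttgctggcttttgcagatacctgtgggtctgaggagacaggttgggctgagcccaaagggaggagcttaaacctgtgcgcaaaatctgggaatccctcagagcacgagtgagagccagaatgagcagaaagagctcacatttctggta
Hrg: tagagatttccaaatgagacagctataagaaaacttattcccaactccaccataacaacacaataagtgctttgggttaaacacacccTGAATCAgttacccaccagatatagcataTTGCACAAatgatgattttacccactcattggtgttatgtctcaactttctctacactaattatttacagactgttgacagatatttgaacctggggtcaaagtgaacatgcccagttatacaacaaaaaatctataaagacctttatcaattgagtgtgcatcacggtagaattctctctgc

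Promoters of 35 of the 44 genes, 38 in all, were in the RefSeq table of 32851. The AP-1 letters were in 5 of the 38 (C8g, C3ar1, F2, Fgb and Hrg), beside 7.81% of all promoters in the table. C/EBP letters were in 11 of 38 against 10.8% of all, HNF1 letters in 11 of 38 against 7.10% of all, and STAT3 letters in 8 of 38 against 8.30% of all. Among the 15 promoters of called genes the counts were 3, 4, 4 and 2. A match in these windows is a description of letters, not a binding site.

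The branch of the contact system and factor XI, into which Hrg was also sorted, held a gene called in each direction. Apart from Hrg, only F11 was called. F11 encodes factor XI, which activates factor IX. It had ratios of -0.82, -1.24, -1.19, -0.71 and -0.73 in the mice and -0.81 for the pool, all well below 0. It fell by 0.84 (SE 0.10, adjusted p = 0.00214), or 1.79-fold. Klkb1 (plasma prekallikrein), its neighbour on chromosome 8 with 0 genes between, was between -0.49 and -0.25 in the mice and 0.10 for the pool (estimate -0.11, adjusted p = 0.308). F12, factor XII, the first protease of the contact system, was at -0.02 (adjusted p = 0.906). Hrg encodes histidine-rich glycoprotein, a plasma protein that binds heparin, plasminogen and fibrinogen. It had ratios of 0.84, 0.45, 0.46, 0.93 and 0.14 in the mice and 0.78 for the pool, above 0 throughout with mouse 5 lowest. It rose by 0.68 (SE 0.14, adjusted p = 0.0185), or 1.61-fold, and with Agilent's processed signals the adjusted p was 0.0748. Kng1, high molecular weight kininogen, the cofactor of the contact proteases, lies near Hrg on chromosome 16 with 1 gene between. Its ratios were 0.49, 0.80, 0.79, 0.40 and 0.33 in the mice against -0.65 for the pool (estimate -0.08, adjusted p = 0.65).

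Of the 4 vitamin K-dependent proteases, F7 alone was called. Factor VII starts clotting with tissue factor. F7 had ratios of -0.47, -0.48, -0.60, -0.60 and -0.44 in the mice and -0.14 for the pool, which was the array nearest to 0. It fell by 0.33 (SE 0.06, adjusted p = 0.013), or 1.25-fold, and its other probe gave -0.33 too. The adjusted p was 0.0736 with Agilent's processed signals and 0.106 with median centring, at an estimate of -0.18. F10, the gene of factor X and the neighbour of F7, had ratios of 0.69 to 0.99 in the mice and -0.56 for the pool (estimate 0.14, adjusted p = 0.263). F2 (prothrombin) and F9 (factor IX) each had an estimate of -0.12 (adjusted p = 0.214 and 0.352). The 7 genes of vitamin K recycling and gamma-carboxylation that were tested gave 0 calls in limma, with 2 at an unadjusted p under 0.05 and a median of -0.13.

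Of the 5 anticoagulant and fibrinolytic genes 0 were called in limma, and 1 had an unadjusted p under 0.05. Tfpi, the inhibitor of the tissue factor complex, was lowest at -0.27 (adjusted p = 0.0661). Proc, protein C, was between 0.17 and 0.44 in the mice and -0.05 for the pool (estimate 0.15, adjusted p = 0.21). Its cofactor protein S (Pros1), plasminogen (Plg) and the fibrinolysis inhibitor Cpb2 had estimates of 0.01, -0.05 and 0.13 (adjusted p = 0.961, 0.767 and 0.38).

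The dye-swapped array and the mouse arrays differed most on very bright genes, though not on these alone. Several dimmer genes also had a mouse average and a pool ratio on opposite sides of 0. Among them were C1ra, Klkb1, F13b, Fga, F2, Hc, F5 and Proc. The dye constant, the mean of the mouse average and the unturned ratio of the swapped array, was near 0 for most genes. Its median lay between -0.04 and 0.04 in every group of genes with a mean log2 signal under 16. Over the 106 genes at 16 or above it was 0.44, and 86.8% of them had a constant of more than 0.25 in size, against 1.87 to 12.9% in the dimmer groups. Of the 44 genes, 8 lay in that brightest group, and 6 of these 8 had a constant over 0.25: C3 (0.51), F10 (0.70), Kng1 (0.58), Fgb (0.75), Fgg (0.28) and Vtn (0.36). Clu (0.23) and C4b (0.13) were the others. Among the dimmer genes of the set, Mbl2 (0.32) and Fga (-0.27) exceeded 0.25 in size.

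**Figure D3:**
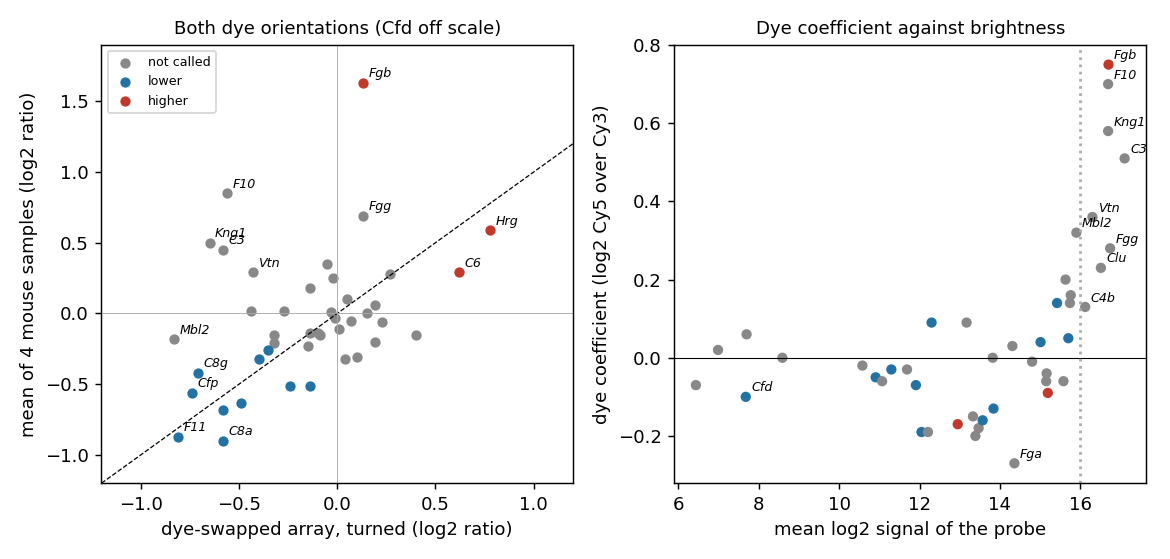
Left, the mean log2 ratio of the 4 mouse samples (vertical axis) against the turned ratio of the dye-swapped array (horizontal axis) for the complement and clotting genes, coloured by call, with a dashed line of equality and Cfd off the scale. Right, the dye constant (log2 Cy5 over Cy3, vertical axis) against the mean log2 signal of the probe (horizontal axis) for all 44 genes, where the 8 genes to the right of the dotted line at 16 lie between 0.13 and 0.75.

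For these bright genes the answer depended on which arrays were used. From the mouse arrays alone, C3 (0.45, adjusted p = 0.00981), Kng1 (0.50, 0.00401), Vtn (0.29, 0.0143) and F10 (0.85, 0.000173) would all be called higher, whereas with the dye-swapped array none was called and 3 of the 4 estimates were below 0. With Agilent's processed signals the median constant of the 106 bright genes was 0.16 and the range over the 8 genes was -0.08 to 0.42. With median centring in place of loess it was 1.54, beside 0.45 for all genes. Only 1 dye-swapped array was made, so an error of that array alone and a dye effect cannot be told apart.

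F10 and Kng1, which are among these bright genes, each had a dimmer probe that did not follow the brightest one in the mice. The brightest F10 probe gave 0.69, 0.66, 0.92, 0.92 and 0.99 in the mice and -0.56 for the pool. Its dimmer probe gave -0.37, -0.27, -0.29, -0.42 and -0.27, and -0.24 for the pool, all below 0. The dimmer probe had an estimate of -0.29 and an adjusted p of 0.0206 over all probes, and the mean of both was -0.07. For Kng1 the dimmer probe was between -0.32 and -0.07 on all 6 arrays, with an estimate of -0.15. It names another transcript accession than the brightest probe, so the 2 may not read the same transcripts. The sign of the F10 estimate therefore depended on the probe, whereas both Kng1 estimates were below 0. For C3, the other probe was as bright and gave -0.14, with 0.06, 0.82, 0.68, 0.38 and -0.02 in the mice and -0.57 for the pool. The dimmest of 3 Masp2 probes gave 0.03, against -0.23 and -0.24 for the other two. Of the 44 genes, 11 had more than 1 probe, and the other 33 had no such check.

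**Figure D4:**
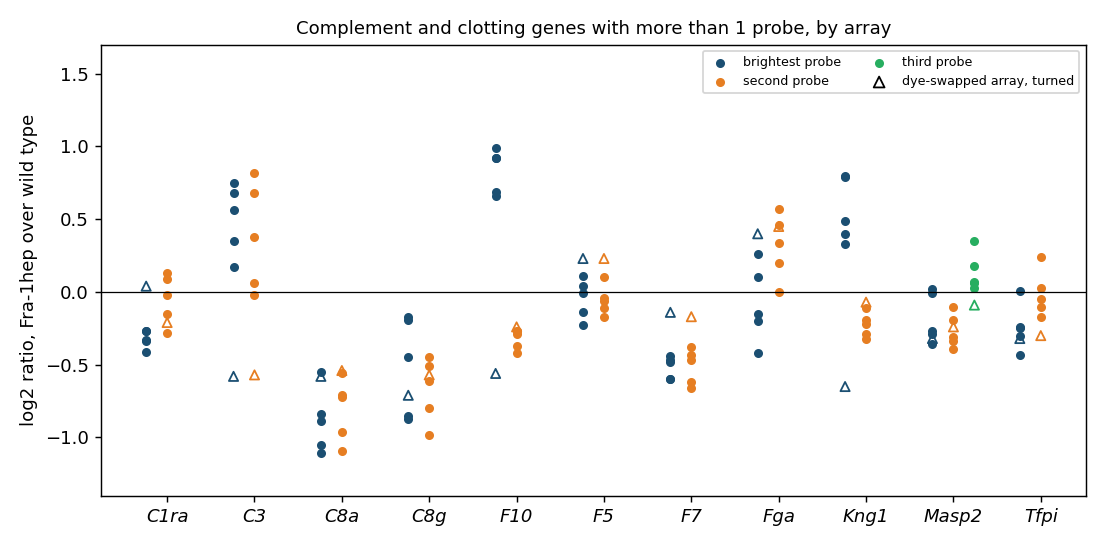
Log2 ratio of Fra-1hep over wild type (vertical axis) for each probe of the genes with more than 1 probe (horizontal axis), with circles for the 5 mouse arrays and triangles for the dye-swapped array. The F10 probes lie on opposite sides of 0 in all 5 mice, while the probes of C8a, C8g and F7 lie together below 0.

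Genes of the same pathways outside the set were counted from lists chosen with earlier results known. Of 23 other complement genes tested, 12 fell, 1 rose and 10 were not called, with a median of -0.26. Over all genes tested, 6.51% fell and 5.97% rose. C1qa, C1qb, C1qc and Vsig4, all called lower, are also among the macrophage markers above, so the 2 counts are not separate. The largest falls were Itgax (-0.94) and Itgb2 (-0.71), subunits of complement receptors on white blood cells, and Cd55 (-0.74), which breaks up convertases. The gene called higher was Fcnb (0.32), the ficolin of white blood cells, which was above background on 5 of 6 arrays for Fra-1hep but on 1 of 6 for wild type and so passed the filter through the Fra-1hep dye. Of 20 other clotting genes, 5 fell and 2 rose, with a median of -0.01. The widest differences were F2r, a thrombin receptor, at 1.06, Procr, the protein C receptor, at -0.61 and Tfpi2, a protease inhibitor, at -0.58. Of 18 hepatocyte transcription factors 1 was called (Nr1i3, the nuclear receptor CAR, at -0.65), and the median was 0.00. Of 11 genes of IL-6 and STAT3 signalling, which drive fibrinogen in the acute phase, Il6ra (receptor for interleukin 6) rose by 0.63, while Lifr, Il6st and Tnf fell by 0.42, 0.41 and 0.31.

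The calls varied with the processing. C8a, Cfd, Mbl1 and F11 passed under all 19 other settings tried. The remaining 10 passed under 12 (C4bp) to 18 (C6 and Cfp) of them, and all 10 were lost when tested against a 1.2-fold change in place of no change. The settings with Agilent's processed signals and with the authors' deposited table rest on the same values (correlation 1 on each array), so they are not separate checks.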

How the data were processed

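Liver RNA (integrity above 7.8, 100 ng labelled) was measured on 6 Agilent arrays, per the labels' protocols. The number of single mutant mice is 6 in the series design text but 5 in the sample labels, which were followed and add a dye-swapped array of pools. The authors extracted images with Agilent Feature Extraction (10.7.3.1 per the file headers, 10.7 per the submitters' processing notes). Each deposited scanner file holds median spot and background signals as intensity, not normalized, with processed signals and their log10 ratios of red over green, per the file headers. A deposited table of the whole series gives the authors' log2 ratios from the processed signals, the dye-swapped column already turned, without centring (column medians -0.18 to 0.06). It was used as an alternative only.

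Background was corrected with normexp (offset 50) and ratios were normalised by loess within each array in limma 3.58.1 (R 4.3.3, and the data.table package, version 1.17.8). Control spots and 190 to 301 outlier spots per array had weight 0. Spots of a probe were averaged. The offset shrinks the ratios of dim probes. Of 55681 probes, 26056 had 1 gene symbol through their accession in the RefSeq list of GRCm38.p6. A probe was tested if above background in the Fra-1hep dye on at least 3 of 5 mouse arrays or in the wild-type dye on at least 3 of 6 arrays (30103 probes, 22845 genes). The median red signal of an array was 90.5 to 114 and the median green signal 46 to 58. The number of arrays limits the precision. Log2 ratios were fitted with lmFit and eBayes, with a genotype coefficient and a dye constant (3 residual and 4.67 prior degrees of freedom), 2-sided against 0, with Benjamini-Hochberg adjustment. The fit was tested on simulated data.

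Every called gene of the set is given on each array. The others are given by their estimates. Of each further list the 3 called genes with the largest absolute ratio are named, plus genes where a count was small. The 44 genes, the lists and the tests were chosen with earlier results of these data known. Alternatives changed the signal, normalization, probe rule, dim filter, dye term, slide block, variance model, fold threshold and arrays used. Promoters and motifs came from the RefSeq promoter list. No protein sequence was used here.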

Additional observations from a re-analysis of the deposited data

Results flagged for a closer look

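In each of the 44 genes the 4 Fra-1hep samples (mice 2 and 3 as their mean) were searched for a sample whose gap to the nearest other, divided by the range, exceeded Dixon's critical value for 4 samples. It was exceeded in 3 of the 44 genes, and chance alone flags about 1 group in 20. Fgb was 0.89 in mouse 1 and 1.84 to 1.93 in the other samples, a gap of 0.915 of the range. Fgg, its neighbour, was also lowest in mouse 1 (0.22). Cfd was -3.59 in mouse 4 and -3.32 to -3.28 in the others, a gap of 0.861, at a signal near background in Fra-1hep. C1ra was -0.27 in mouse 1 and -0.34 to -0.33 in the others, a gap of 0.845, over a range of a few hundredths.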

How the results depend on the processing

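Limits: 1 dye-swapped array has the weight of all mice, 1 wild-type pool gives no control spread, and ratios near background are compressed. All 44 genes were tested. In the order all genes higher, all genes lower, set higher and set lower, the counts were 1364, 1487, 3 and 11. They were 753, 792, 1 and 6 with Agilent's processed signals and 752, 791, 1 and 6 with the authors' deposited table. Both lost C4bp, C8g, Cfb, F7, Fcna, Fgb and Hrg. Median centring gave 2465, 833, 7 and 6 and lost C1s1, C4bp, C8g, Cfb and F7. The counts were, with no dye term, 2482, 2304, 6 and 14, with mouse arrays alone 3462, 2637, 9 and 14, and with a test against a 1.2-fold change (limma's treat) 297, 277, 0 and 4. Of the 44, 22 had an unadjusted p under 0.05 against no change. Leaving out single mice gave 1118 to 1306 higher and 1201 to 1450 lower over all genes, and 3 to 4 higher and 9 to 11 lower in the set. Leaving out both mouse 2 and mouse 3, an alternative chosen after seeing the data, lost C4bp and Cfb.

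Reversals concerned genes that were not called. With median centring the estimates were C1ra 0.02, C3 0.11, C9 0.02, Vtn 0.10, C3ar1 0.04, F2 0.04, F9 0.03, F12 0.15, F13b 0.15, Klkb1 0.05, Kng1 0.09 and Plg 0.12. Without the dye term they were C3 0.24, Vtn 0.15, C3ar1 0.00, F5 0.00, Fga -0.04, Kng1 0.27 and Pros1 -0.03. From mouse arrays alone they were C3 0.45, Vtn 0.29, Clu 0.02, C3ar1 0.01, F2 0.02, F5 -0.06, Fga -0.15, Kng1 0.50 and Pros1 -0.05. With slide as a fixed block C3 was 0.04 and Hc -0.03. C3ar1 was 0.00 without background subtraction and with a random slide block (correlation -0.016), F10 was -0.07 as the mean of its probes, and Pros1 was 0.00 with Agilent's signals and the deposited table. Without mice 2 and 3, F13b was 0.02 and Pros1 -0.04. Leaving out single mice, Hc ranged from -0.05 to 0.07, C3ar1 from -0.06 to 0.05 and F12 from -0.04 to 0.01. The cause was not tested.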

Other observations

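Several neighbouring genes of the set had different estimates. Cfb and C2, with 0 genes between them on chromosome 17, were at -0.30 and 0.07. C1ra and C1s1 on chromosome 6 were at -0.14 and -0.37, F7 and F10 on chromosome 8 at -0.33 and 0.14, and F11 and Klkb1 on the same chromosome at -0.84 and -0.11. The paralogs C1rb and C1s2, chosen after their values were seen, fell by 0.24 and 0.31. Platelet markers had a median of 0.31 (2 of 6 called higher) and cholangiocyte markers of 0.20 (2 of 6 higher), while 1 of 9 stellate cell markers rose and 1 fell.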
